A study of Mus musculus with 33 samples.

Results

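The genes described here are 8 integrin subunits of blood cells, Itgam, Itgal, Itgax, Itga4, Itga5, Itga6, Itgb1 and Itgb2, which were chosen by name from the 750 endogenous probes of a mouse immune gene panel. All 8 were on the panel and all 8 passed the filter on low counts, which left 655 genes to test. RNA of whole bone marrow was measured in 33 female C57BL/6 mice aged 6-8 weeks, which carried no transgene or mutation that the labels name. Mice received venetoclax, an inhibitor of the survival protein BCL2, or ruxolitinib, an inhibitor of the cytokine receptor kinases JAK1 and JAK2, by oral gavage for 2 days. Controls received the vehicle of the one drug (Phosal, polyethylene glycol and ethanol) or of the other (DMSO, polyethylene glycol and water), or nothing. Bone marrow was taken on day 1, 3 or 7 after treatment, which gave 6 drug groups of 3 mice, 6 vehicle groups of 2 mice and 1 group of 3 untreated mice. The study used the measurement to ask what each drug does to immune gene expression in the recipient marrow before a transplant.

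Integrins are receptors of the cell surface that are built from an α and a β chain, and they attach leukocytes to other cells and to the matrix. The β2 chain (Itgb2, CD18) is restricted to leukocytes. It pairs with αL (Itgal, CD11a) to form LFA-1, with αM (Itgam, CD11b) to form Mac-1, the adhesion and complement receptor of neutrophils and monocytes, and with αX (Itgax, CD11c), which is used as a marker of dendritic cells. The β1 chain (Itgb1, CD29) pairs with α4 (Itga4, CD49d) in VLA-4, which holds blood stem cells and lymphocytes to VCAM-1 on marrow stroma, with α5 (Itga5) in the fibronectin receptor, and with α6 (Itga6) in a laminin receptor. The counts are of RNA and do not measure how much of a chain is on the cell surface or whether it is in its active shape.

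The values are barcode counts of 1 nCounter lane per mouse, divided by a scale taken from 11 housekeeping probes, and are called normalised counts below. The endogenous counts of a lane summed to between 18056 and 466096 (median 158944), and 2 lanes lay under 30000, 1 of venetoclax on day 1 and 1 of ruxolitinib on day 3. Background was set in each lane from the negative probes, at 2 SD over their mean, and lay between 1.83 and 7.85 counts. Itgam, Itgal, Itga4, Itgb1 and Itgb2 were above background in all 33 lanes, Itga6 in 32, Itga5 in 26 and Itgax in 16. All lanes of 1 day were read in 1 run of 11 lanes together with 1 untreated mouse, so that drug and vehicle mice of a day shared a run. A difference between days cannot be told apart from one between runs. The run header of the day 3 mice names another day than their labels. The marrow is a mixture of cells, and fewer cells of a type cannot be told apart from less RNA per cell. The lists of neutrophil, monocyte and B cell genes summed to at least 58112, 5607 and 284 normalised counts in every lane, and no list had a gene on the panel that stayed at background in all lanes. The sums of 10 T cell, 9 NK cell and 4 dendritic cell genes fell as low as 48.6, 45.5 and 38.8. Sums this low rest on fewer counts and are less certain.

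The start site regions of Itgam, Itga4 and Itgb1 are shown because these genes were among those that stood higher in the day 7 run, as described below. They are the 250 bases before each start site, from a table of RefSeq start sites on build GRCm38.p6, in which 5 of the 8 genes were matched (Itgam, Itgax, Itga4, Itga5 and Itgb1). Capitals mark matches on either strand to GAGGAA (the core bound by PU.1, a factor of myeloid cells), TGTGGT (RUNX) and GGGCGG (the GC box of Sp1), and no 2 matches overlap.
Itgam (chr7:128062390-128062639, plus strand): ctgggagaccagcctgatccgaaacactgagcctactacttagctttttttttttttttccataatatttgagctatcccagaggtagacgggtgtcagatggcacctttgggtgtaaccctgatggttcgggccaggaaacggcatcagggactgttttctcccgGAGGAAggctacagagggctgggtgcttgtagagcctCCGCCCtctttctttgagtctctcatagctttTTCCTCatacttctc
Itga4 (chr2:79255176-79255425, plus strand): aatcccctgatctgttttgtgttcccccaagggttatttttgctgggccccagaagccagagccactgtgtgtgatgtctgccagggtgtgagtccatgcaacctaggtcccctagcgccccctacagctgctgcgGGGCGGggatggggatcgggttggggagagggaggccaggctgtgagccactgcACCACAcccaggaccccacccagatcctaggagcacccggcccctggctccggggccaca
Itgb1 (chr8:128685404-128685653, plus strand): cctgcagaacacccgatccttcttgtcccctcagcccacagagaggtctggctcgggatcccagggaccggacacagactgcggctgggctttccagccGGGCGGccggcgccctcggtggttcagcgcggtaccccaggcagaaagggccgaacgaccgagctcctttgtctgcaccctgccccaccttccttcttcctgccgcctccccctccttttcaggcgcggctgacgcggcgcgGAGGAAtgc
Itgam had 2 matches to GAGGAA, starting 84 and 15 bases before the start site, and 1 GC box at 47 bases. Itga4 had 1 RUNX match at 60 bases and 1 GC box at 114 bases before the start site. Itgb1 had 1 GAGGAA match at 9 bases and 1 GC box at 151 bases. Itga5, which was not called between these runs, had 1 GAGGAA match at 127 bases and 2 GC boxes, at 149 and 6 bases. Of 32536 such regions in the table, 23.4% held GAGGAA, 14% held TGTGGT and 33% held GGGCGG, so these are common short words. TATAAA, the TATA box, was searched too and was in none of the 5 regions and in 12.3% of all. A match is only a run of letters.

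Neither drug gave a call for any of the 8 subunits on any day. A gene was called where edgeR's quasi-likelihood test, adjusted over all 655 genes, gave a p under 0.05. On day 1, 0 of 8 were called for venetoclax, where 0.153% of all genes were, and 0 of 8 for ruxolitinib, where 2.75% were. On day 3 the counts were 0 of 8 for both drugs, beside 0.0% of all genes for venetoclax and 0.153% for ruxolitinib. For venetoclax on day 3, where edgeR called 0 genes, 70 genes had an unadjusted p under 0.05, DESeq2 called 1 gene and limma called 0. On day 7 they were again 0 of 8 for both drugs, beside 0.153% of all genes for each. Over the mean of the 3 days, 0 of 8 were called for venetoclax (2.9% of all genes) and 0 of 8 for ruxolitinib (1.22%). An adjusted p that misses the threshold does not show that a level was the same, and the 95% intervals of the fold changes were wide for the low genes. With Itgb2, the subunit with the smallest standard error there, the interval for venetoclax on day 1 ran from -0.42 to 0.57 on the log2 scale, and with Itgax it ran from -0.62 to 2.29. The labels do not say whether mice of a group were housed or dosed together, and the p-values measure the spread between these mice.

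The medians of the 8 log2 fold changes lay within 0.1 of the median of all genes on days 3 and 7. On day 1 the median was -0.22 for venetoclax against -0.02 over all genes, and 0.24 for ruxolitinib against 0.13. On day 3 it was 0.12 for venetoclax (all genes 0.06) and 0.08 for ruxolitinib (all genes 0.02). On day 7 it was 0.00 and 0.09 (all genes -0.01 and 0.02). At an unadjusted p under 0.05 there were 4 pairs of a subunit and a drug day, namely Itga4 with venetoclax on day 1 (1 of 8, where 10.4% of all genes passed), Itgax with ruxolitinib on day 1 (1 of 8, 13.6% of all genes), and Itgal and Itgb2 with venetoclax on day 3 (2 of 8, 10.7% of all genes).

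**Figure D1:**
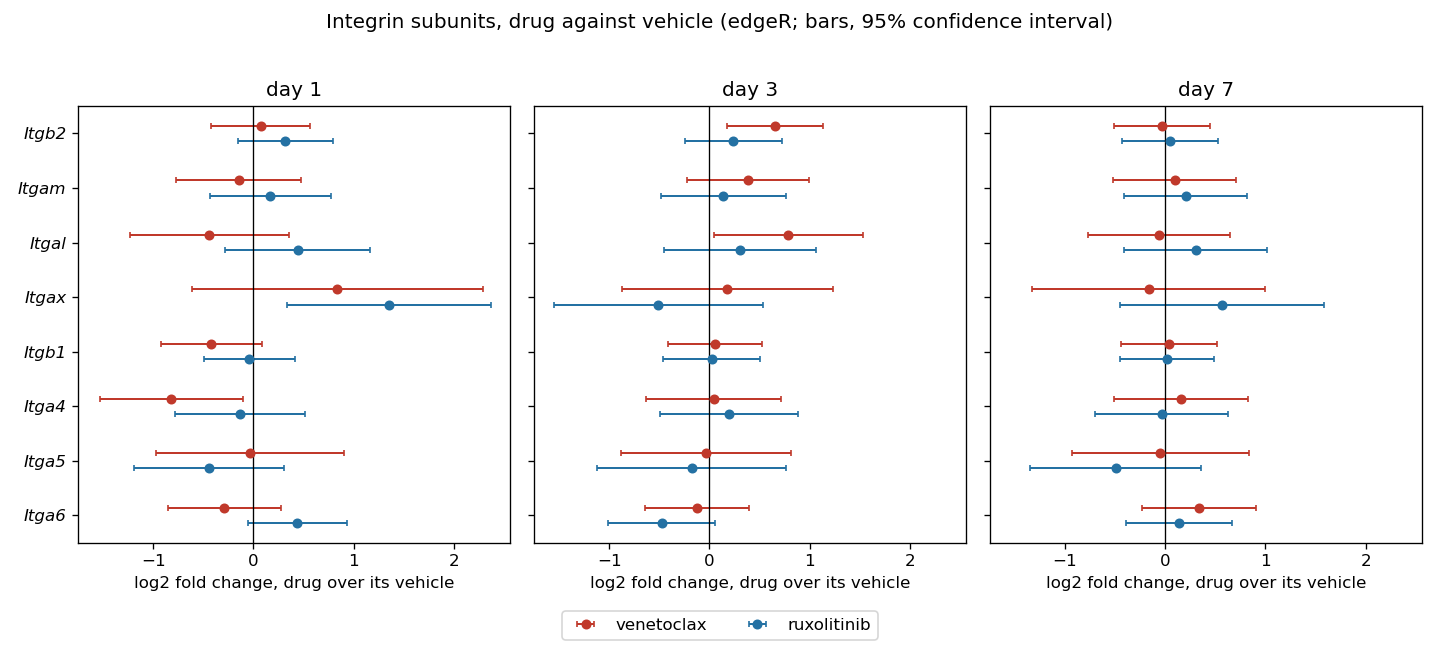
Log2 fold change of each integrin subunit in drug-treated over vehicle-treated mice on days 1, 3 and 7, with venetoclax in red and ruxolitinib in blue (points, edgeR estimates; bars, 95% confidence intervals; 3 drug mice against 2 vehicle mice each). The intervals of Itga4 for venetoclax on day 1, Itgax for ruxolitinib on day 1, and Itgal and Itgb2 for venetoclax on day 3 do not reach 0, and no adjusted p was under 0.05.

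The drug and vehicle mice of 1 day did not overlap for 5 of 8 subunits with venetoclax on day 1 (27.5% of all genes) and for 4 of 8 with ruxolitinib on day 1 (44%). On day 3 this held for 1 of 8 with venetoclax (26.1%) and 1 of 8 with ruxolitinib (15.6%). On day 7 it held for 0 of 8 with either drug (17.3% and 17.7%). With venetoclax on day 1, Itga4, Itgal and Itgb1 lay below and Itgax and Itgb2 above both vehicle mice. For Itgax, which is among the 5 of 8, this order is not measured. Only 2 of its 3 venetoclax lanes and 0 of its 2 vehicle lanes were above background. With ruxolitinib on day 1, Itga5 lay below and Itgal, Itgax and Itgb2 above them.

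Itgb2, the chain that all leukocyte-restricted integrins of this set share, had the smallest spread of the 8, with a highest normalised count over all mice 2.16 times the lowest. With venetoclax it was at 255, 250 and 250 on day 1 against 246 and 232 with vehicle. On day 3 it was at 440, 279 and 500 against 233 and 282. On day 7 it was at 356, 299 and 481 against 438 and 340. On day 3, 2 of the 3 venetoclax mice stood above both vehicle mice and the third lay among them. The log2 fold change on day 3 was 0.66 ± 0.23 (SE, 3 against 2 mice), with an edgeR adjusted p of 0.275. Left out in turn, the 5 mice gave 0.48 to 0.86 and the lowest adjusted p was 0.0847, without the low venetoclax mouse. With ruxolitinib Itgb2 was at 291, 335 and 312 on day 1 against 250 and 251 with vehicle, a step that did not pass the unadjusted test. It was at 407, 375 and 327 against 285 and 336 on day 3, and at 433, 404 and 438 against 447 and 371 on day 7, with overlap on both days. The 3 untreated mice had 243, 366 and 300.

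Itgal is the α chain of LFA-1, and with venetoclax its mice lay on different sides of vehicle on days 1 and 3, without a call on either day. On day 1 the venetoclax mice had 66.6, 77.9 and 42.4 and their vehicle mice 96 and 78.9, so that the highest drug mouse was just under the lower vehicle mouse. On day 3 they had 132, 82.4 and 145 against 70.3 and 69.2, all above. On day 7 they had 177, 171 and 229 against 222 and 180, with overlap. The day 1 log2 fold change was -0.44 ± 0.38 (SE, 3 against 2 mice), with an edgeR adjusted p of 0.804. The day 3 log2 fold change was 0.79 ± 0.36 (SE, 3 against 2 mice), with an edgeR adjusted p of 0.410. The untreated mouse of the same run had 80.7, below all 3 venetoclax mice. Those of the day 1 and day 7 runs had 51.2 and 243, and with all 3 untreated mice as the control, which mixes the runs, the change was 0.03. With ruxolitinib Itgal was at 113, 84.8 and 86.4 on day 1 against 73.3 and 66.8, all above. It was at 116, 133 and 89.3 against 78.4 and 104 on day 3, and at 131, 166 and 242 against 155 and 121 on day 7.

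Itgam, the α chain of Mac-1, is the subunit by which marrow granulocytes and monocytes are usually sorted, and it did not separate drug from vehicle on any day. With venetoclax it was at 105, 260 and 229 on day 1 (vehicle 223 and 241), at 360, 204 and 384 on day 3 (vehicle 250 and 234), and at 273, 268 and 445 on day 7 (vehicle 406 and 199). The 105 came from the lane with the lowest total and rests on 19 raw counts. With ruxolitinib it was at 255, 272 and 268 on day 1 (vehicle 212 and 258), at 281, 279 and 258 on day 3 (vehicle 260 and 234), and at 282, 305 and 401 on day 7 (vehicle 323 and 236). The untreated mice had 211, 283 and 317. The venetoclax mouse that was low for Itgb2 and Itgal on day 3 was also the lowest of its group for Itgam.

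Itgax, the CD11c chain, was near background throughout, at 1 to 21 raw counts. The ruxolitinib mice of day 1 had 6.28, 6.22 and 7.11, from 10, 11 and 13 raw counts, all above background. Their vehicle mice had 2.75 and 2.40, from 3 and 7 raw counts, both not above background. The log2 fold change was 1.35 ± 0.49 (SE, 3 against 2 mice) with an edgeR adjusted p of 0.175, and since the vehicle lanes were not above background its size is not well measured. With the vehicles of both drugs pooled as control it was 1.42 with an adjusted p of 0.0437, the only alternative in which a subunit was called for a drug. Against the 3 untreated mice, which come from 3 runs, it was 0.31. The untreated mouse of the same run had 6.40, within the range of the drug mice, from 2 raw counts, and was not above background. On days 3 and 7 the drug and vehicle mice overlapped for both drugs, between 2.05 and 12.4.

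**Figure D2:**
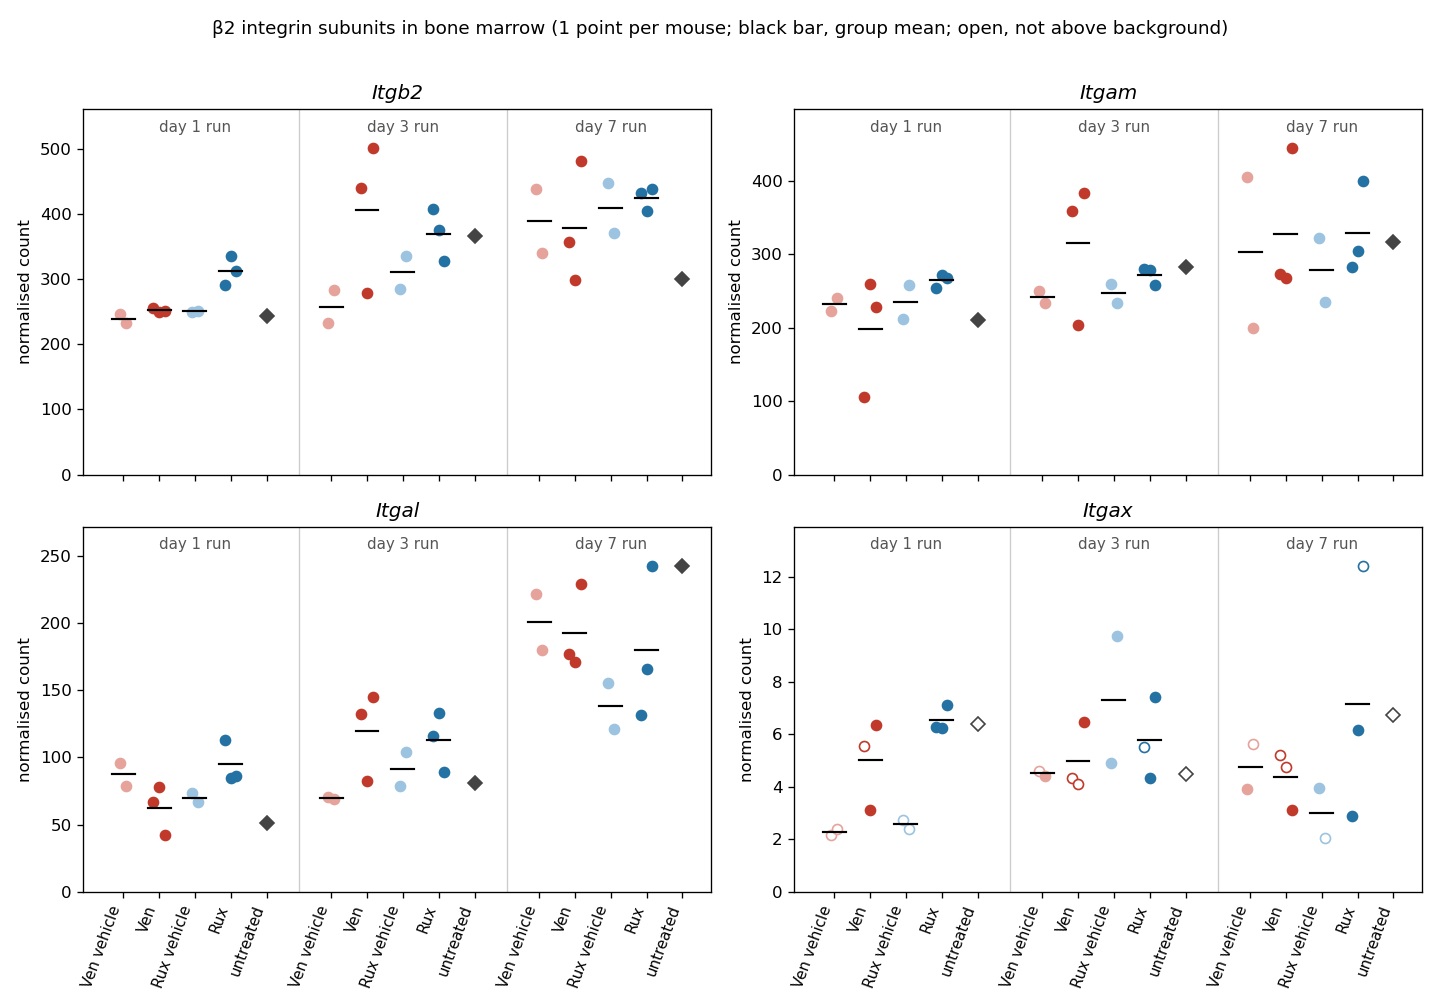
Normalised counts of Itgb2, Itgam, Itgal and Itgax in each of the 33 mice, by run and group (red, venetoclax; blue, ruxolitinib; pale, their vehicles; dark diamonds, untreated; bars, group means; open symbols, not above background). Itgal in the day 7 run lies between 121 and 243, above every mouse of the day 1 run, and the Itgax symbols of all 4 vehicle mice of the day 1 run are open.

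For Itga4, the α4 chain of VLA-4, the venetoclax group of day 1 had the lowest mean of the 13 groups. It had 55.5, 74.1 and 65.8 in these mice against 122 and 118 with vehicle, so that all drug mice were below. The log2 fold change was -0.82 ± 0.34 (SE, 3 against 2 mice), a fold of 0.567, with an edgeR adjusted p of 0.353. The 12 alternatives gave -0.95 to -0.50, with adjusted p-values from 0.0679 to 0.514. Of the 3 drug values the first came from the lane with the lowest total, and without it the change was -0.76. The untreated mouse read in the same run had 25.6, from 8 raw counts, which was below the drug mice. On day 3 Itga4 was at 96.6, 59.7 and 90 with venetoclax against 62.3 and 94.8, and on day 7 at 158, 111 and 181 against 149 and 121, with overlap on both days. With ruxolitinib it was at 84.1, 96.7 and 104 on day 1 (vehicle 117 and 92.8), at 71.5, 138 and 102 on day 3 (vehicle 79.6 and 114), and at 114, 138 and 124 on day 7 (vehicle 127 and 131). None of these changes passed the unadjusted test.

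Itgb1, the partner chain of all 3 β1 receptors here, was at 99.8, 123 and 55.2 with venetoclax on day 1, below its vehicle mice at 127 and 128. The difference did not pass the unadjusted test. In the other drug groups Itgb1 overlapped its vehicle, and over all 33 mice it ran from 55.2 to 183. On day 3 it was at 126, 122 and 130 with venetoclax against 110 and 131. With ruxolitinib on day 1 it was at 149, 145 and 129 against 146 and 145. The group means of day 7 lay close together, from 156 ± 2.10 (SD, n = 2) with venetoclax vehicle to 165 ± 13.3 (SD, n = 3) with ruxolitinib.

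Itga6, the laminin receptor chain, did not separate venetoclax from vehicle on any day. With ruxolitinib it was at 71.5, 74.1 and 58.5 on day 1 against 60.4 and 42.1, and at 38.5, 49.5 and 58.3 on day 3 against 61.2 and 79.5, where all drug mice were below. The 38.5 rests on 7 raw counts and was not above background. The response to venetoclax on day 1 differed from that to ruxolitinib by -0.73 ± 0.36 (log2, SE), with an edgeR adjusted p of 0.366. Itga5, the chain of the fibronectin receptor, was low, at 1 to 40 raw counts. With ruxolitinib on day 1 it was at 8.79, 12.4 and 10.4 against 15.6 and 13.7 with vehicle, all below, and did not pass the unadjusted test. Its other groups overlapped their vehicles, between 2.81 and 21.2.

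**Figure D3:**
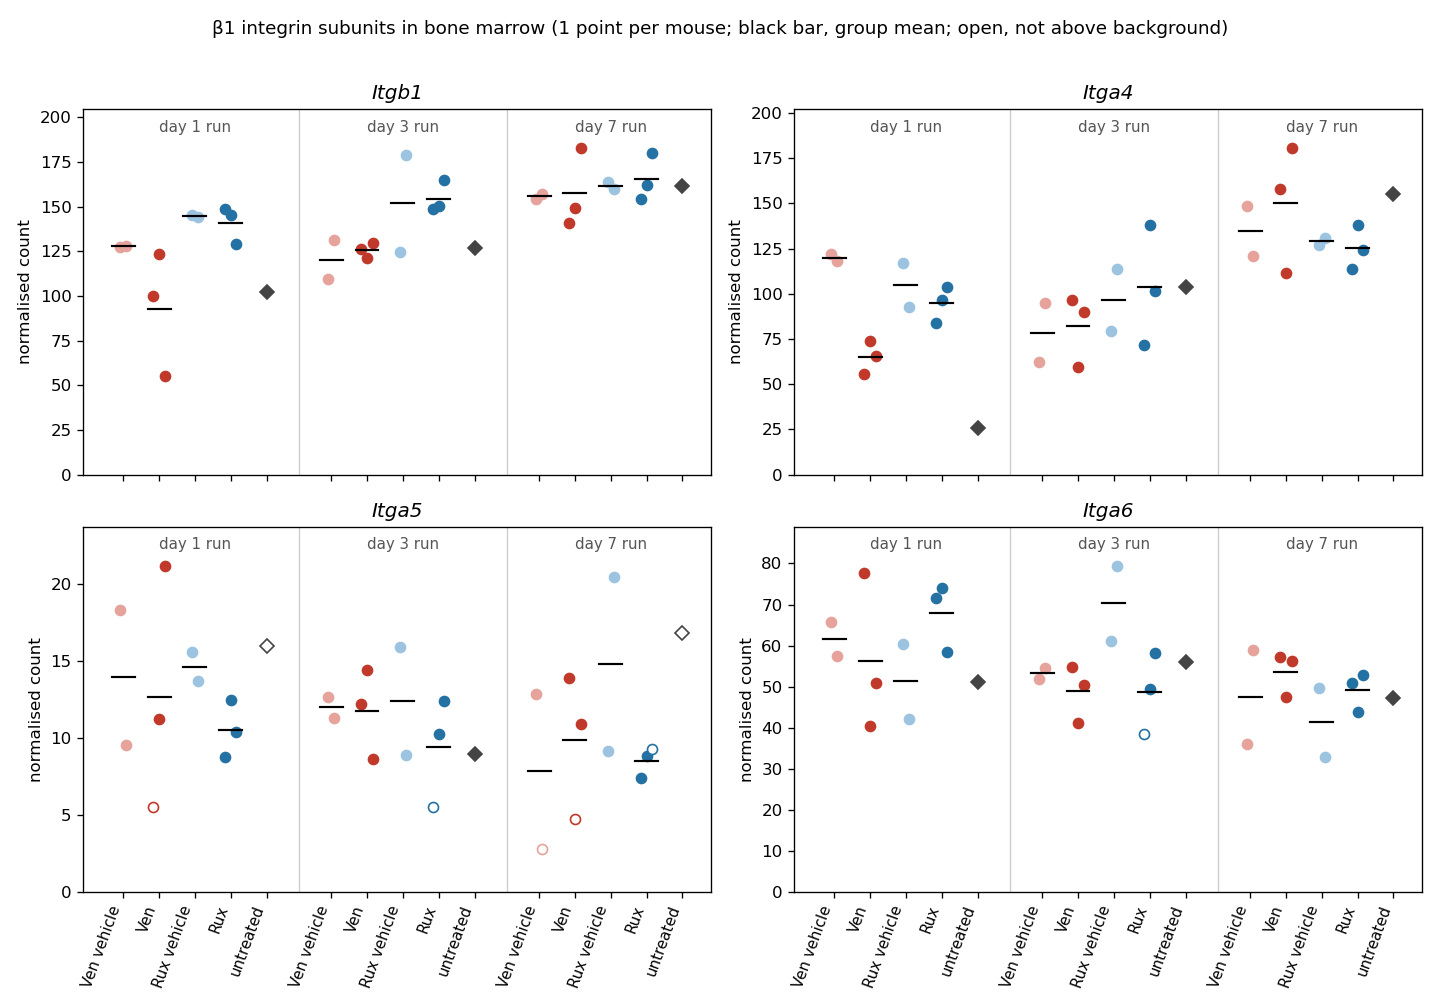
Normalised counts of Itgb1, Itga4, Itga5 and Itga6 in each of the 33 mice, by run and group (red, venetoclax; blue, ruxolitinib; pale, their vehicles; dark diamonds, untreated; bars, group means; open symbols, not above background). The 3 venetoclax mice of day 1 lie between 55.5 and 74.1 for Itga4, below both vehicle mice, and the untreated mouse of that run is lower still at 25.6.

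Set against each other, the responses to the 2 drugs gave 0 calls among the 8 subunits. The shares of all genes called were 1.68% on day 1, 0.153% on day 3, 0.305% on day 7 and 0.611% over the mean of the days. At an unadjusted p under 0.05, 1 of 8 passed on day 1 (Itga6), where 13.4% of all genes did. The median of the 8 differences on day 1 was -0.45, and 7 of 8 were below 0, beside a median of -0.12 over all genes. The vehicles of the 2 drugs gave 0 of 8 calls against each other (0.0% of all genes, with 18 genes at an unadjusted p under 0.05, and 0 genes called by limma and by DESeq2).

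Vehicle and untreated mice, each pooled over the 3 runs, gave no call for the 8 subunits, with 0 of 8 called and 0.0% of all genes (75 genes at an unadjusted p under 0.05, 1 gene called by limma and 0 by DESeq2). The pooled values hide differences between the runs. For Itga4 the vehicle mice were higher than the untreated mouse by 2.08 on the log2 scale in the day 1 run, and lower by -0.28 in the day 3 run and -0.24 in the day 7 run. For Itgal the same difference was 0.60, -0.02 and -0.55. For Itgb2 it was 0.01, -0.38 and 0.40. With 1 untreated mouse per run there is no spread to set these against.

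Of the runs, the day 7 run and the day 1 run gave calls against each other. All drug and vehicle groups of the day 7 run were set against those of the day 1 run, as the mean of 4 groups each, a comparison that was added after the values were seen. Of the 8 subunits 5 were called, all higher in the day 7 run, where 46.0% of all genes were called in either direction and 29.2% were called higher. The 6 with an unadjusted p under 0.05 compare with 50.4% of all genes. The median over the 8 was 0.38 and over all genes 0.14. Itgal was higher by 1.18 ± 0.18 (log2, SE; 10 against 10 mice), an edgeR adjusted p of 2.15e-06, which is a fold of 2.26. Itgb2 was higher by 0.62 ± 0.12 (adjusted p 4.00e-05), Itga4 by 0.52 ± 0.16 (adjusted p 0.00816), Itgam by 0.41 ± 0.15 (adjusted p 0.0208) and Itgb1 by 0.35 ± 0.11 (adjusted p 0.0123). Itga6 stood at -0.27 ± 0.13 (adjusted p 0.0894), and Itga5 and Itgax were not called.

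For Itgal the 2 runs did not overlap in any lane. The 10 drug and vehicle mice of the day 1 run had 42.4 to 113 with a median of 78.4, and those of the day 7 run 121 to 242 with a median of 174. The untreated mice went the same way, with 51.2 in the day 1 run and 243 in the day 7 run. The drug and vehicle mice of the day 3 run had 69.2 to 145, with a median of 96.5 that lay between those of the other 2 runs. For Itgb2 the ranges were 232 to 335 and 299 to 481, which overlapped, and the untreated mice had 243 and 300. For Itga4 they were 55.5 to 122 and 111 to 181, and the untreated mice had 25.6 and 155. For Itgb1 they were 55.2 to 149 and 141 to 183. For Itgam they were 105 to 272 and 199 to 445, and leaving out each of 4 single mice (1 ruxolitinib vehicle mouse of day 1, and 1 venetoclax mouse and 1 vehicle mouse of each drug on day 7) ended its call, with adjusted p-values from 0.0548 to 0.209. Itga6 was called as lower without any 1 of 4 mice (venetoclax replicate 2 and ruxolitinib vehicle replicate 2 of day 1, and venetoclax vehicle replicate 2 and ruxolitinib vehicle replicate 1 of day 7), with adjusted p-values from 0.0364 to 0.0459.

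How many of the 8 were called depended on the scaling. With the 11 housekeeping probes the median of all genes was 0.14 higher in the day 7 run, with TMM it was -0.04, with all 20 housekeeping probes -0.02 and with the total count 0.34. TMM and all 20 housekeeping probes called 3 subunits, Itgal and Itgb2 as higher and Itga6 as lower, and the total count called 5 higher. Among all genes called, 63.5% were higher with the 11 probes, 47.8% with TMM, 80.3% with the total count and 51.05% with all 20 probes. Relative to the median of all genes, Itgal was higher by 1.04 with the 11 probes, 1.01 with TMM, 1.02 with the total count and 1.04 with all 20 probes, and Itgb2 by 0.48, 0.47, 0.46 and 0.48. Itga6 was at -0.41, -0.41, -0.42 and -0.41, and Itga5 at -0.46, -0.44, -0.45 and -0.45. The signs of all 8 were the same under these 4 scalings.

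**Figure D4:**
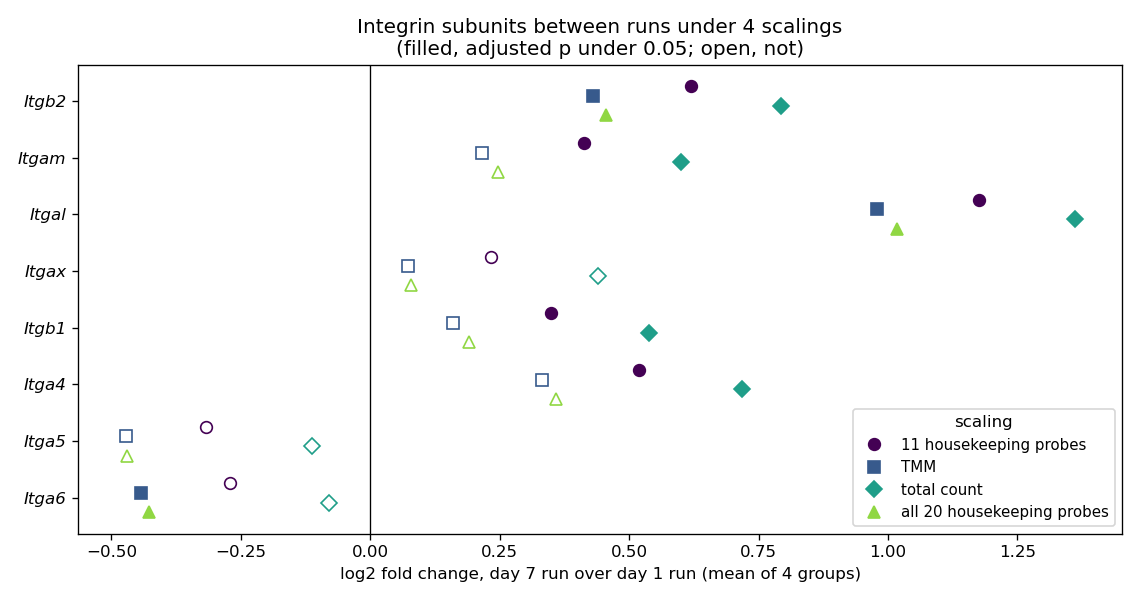
Log2 fold change of each integrin subunit in the day 7 run over the day 1 run, each the mean of 4 drug and vehicle groups, under 4 ways of scaling the lanes (filled symbols, edgeR adjusted p under 0.05). Itgal and Itgb2 are filled under all 4, Itgam, Itgb1 and Itga4 under the 11 housekeeping probes and the total count, and Itga6 under TMM and all 20 housekeeping probes.

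Markers of several cell types moved with the runs too. The summed normalised count of 4 stem and progenitor genes (Kit, Cd34, Runx1 and Flt3) was 48.8 to 144 in the day 1 run and 144 to 211 in the day 7 run, with 3 of the 4 called higher. The sum of 13 monocyte and macrophage genes was 5607 to 9365 in the day 1 run and 8736 to 12069 in the day 7 run, and 10 of the 13 were called. The sum of 11 neutrophil genes was 58112 to 123269 in the day 1 run and 58662 to 88658 in the day 7 run, while 9 of the 11 genes were called higher and 2 lower. The sum of 9 B cell genes was 440 to 788 in the day 1 run and 284 to 898 in the day 7 run, with 3 genes above and 6 below 0, 8 called and a median of -0.54. Of the 4 dendritic cell genes 3 were called, with a median of -0.28. Of the 3 mast cell and basophil genes 3 were called, with a median of 0.66. The part of these lists in the integrin differences was not tested. No integrin subunit was called between the day 3 run and the day 1 run (0 of 8, 0.0% of all genes, 0 genes by limma and by DESeq2), and 2 of 8, Itgax at 0.63 ± 0.28 and Itgb2 at 0.34 ± 0.12, had an unadjusted p under 0.05, where 6.11% of all genes did. Their adjusted p-values were 0.725 and 0.610. The size of the Itgax difference is not well measured, since all 4 vehicle lanes of the day 1 run were not above background.

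Beside the venetoclax values, the marker lists moved as follows. On day 1, where Itga4 was low, the sum of the 9 B cell genes was 440 to 465 with venetoclax and 506 to 628 with vehicle, that of the stem and progenitor genes 48.8 to 144 and 91.6 to 99.3, and that of the monocyte genes 5607 to 8683 and 6824 to 8220. On day 3 Itgal lay above both vehicle mice with venetoclax and Itgb2 overlapped them, both with an unadjusted p under 0.05 and no call. The monocyte sum on that day was 5914 to 11865 with venetoclax and 7016 to 7384 with vehicle. Of its 13 genes 11 had a fold change above 0, with 0 called. In the neutrophil list 9 of 11 had one above 0 on that day, with a median of 0.77, 8 with an unadjusted p under 0.05 and 0 called. The neutrophil sum was 91650 to 122433 with venetoclax and 98730 to 111807 with vehicle, which overlapped. The stem and progenitor sum was 96.8 to 138 against 64.6 to 93.3, with all 4 genes above 0 and 0 called. The B cell sum was 415 to 701 against 577 to 860, and the T cell sum 58.3 to 62.8 against 92.3 to 125. The sum of the dendritic cell genes was 41.8 to 53.1 against 55.5 to 56.5, and that of the NK cell genes 78.3 to 91.4 against 57.7 to 73.2. Of the 4 dendritic cell genes 2 had a fold change above 0 and 2 below. Of the 9 NK cell genes 5 were above 0 and 4 below, and 0 of either list were called. With ruxolitinib on day 1 Itgax, Itgal and Itgb2 lay above both vehicle mice. The sum of 4 dendritic cell genes was then 70.3 to 84.3 against 61.3 to 66.8. That of 6 stromal genes was 250 to 329 against 102 to 114, and that of 9 NK cell genes 47.1 to 49.8 against 65.9 to 77.7. The neutrophil sum was 80110.5 to 93882 against 97681 to 104511, while 8 of the 11 genes had a fold change above 0. The median of these 11 was 0.20, with 0 called. The B cell sum was 696 to 788 against 632 to 655. The stem and progenitor sum was 109 to 131 against 84.2 to 93.1, and the T cell sum 89.1 to 98.5 against 78.8 to 84.9. With venetoclax on day 1 the dendritic cell sum was 38.8 to 53.6 against 44.6 to 83.1. The place of Itgax beside vehicle was not measured there, since both vehicle lanes and 1 venetoclax lane were not above background. Some lists share genes with others, such as Flt3, which is in the stem cell and the dendritic cell list. Their part in these values was not tested.

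Across the 33 mice the subunits that pair did not all follow each other most closely. Correlations are Pearson's r of log2(normalised count + 1) and are given as a description, since the points share the scaling and the runs. Itgb2 correlated with Itgal at 0.73 and with Itgam at 0.70, and with Itgax at 0.20. After each group's mean was subtracted these were 0.44, 0.62 and -0.03. Itgal correlated at 0.72 with Itgb1 and 0.72 with Itga4, chains of the other family, and at 0.68 and 0.70 within groups. Itgb1 correlated with Itga4 at 0.64, and with Itga6 at -0.06 and Itga5 at -0.30. Within the day 7 run alone Itgal and Itgb2 correlated at 0.03, and in the day 3 run at 0.89, over 11 mice each.

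**Figure D5:**
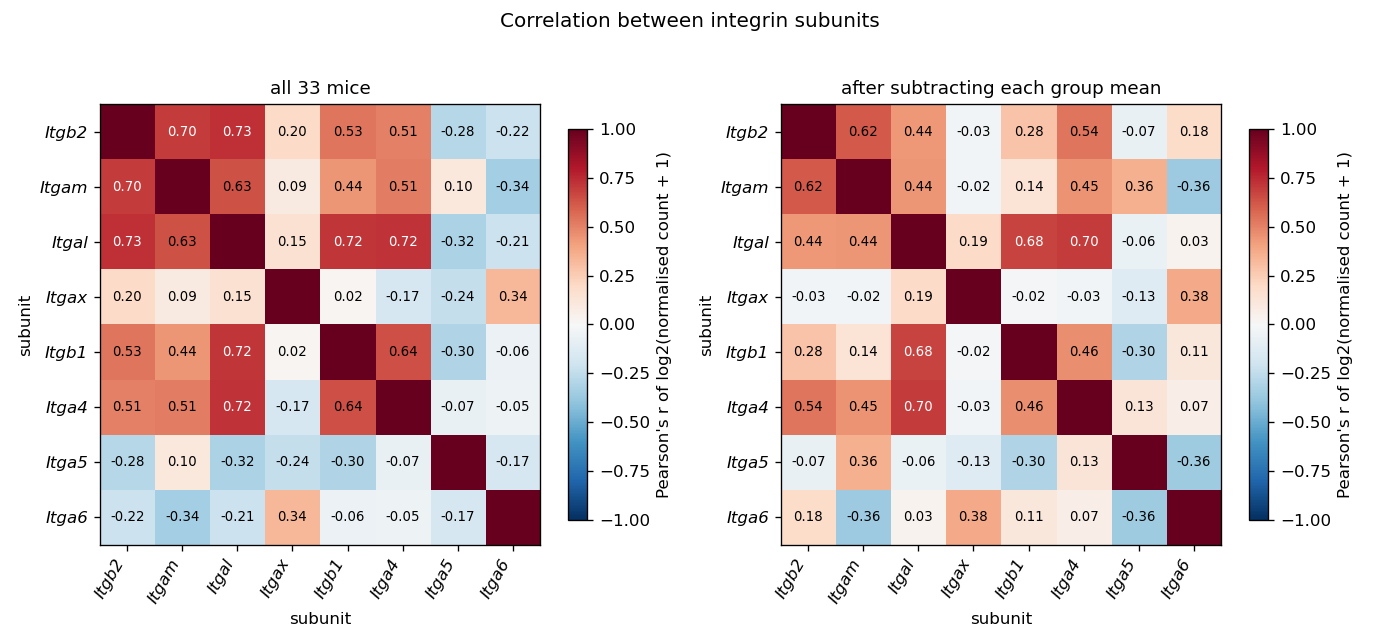
Pearson's r between the 8 integrin subunits over 33 mice (left) and after each group's mean was subtracted (right), from log2(normalised count + 1). Itgb2, Itgam, Itgal, Itgb1 and Itga4 correlate positively with each other in both, from 0.44 to 0.73 on the left and from 0.14 to 0.70 on the right, and Itgax, Itga5 and Itga6 stand apart.

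The log2 ratio of Itgal to Itgb2 was lowest with venetoclax on day 1, at -2.06 ± 0.45 (SD, n = 3), and highest in the venetoclax vehicle and venetoclax groups of day 7, at -0.95 ± 0.04 (SD, n = 2) and -0.96 ± 0.14 (SD, n = 3). The 3 untreated mice spanned -2.25 to -0.31. The ratio of Itgam to Itgb2 stayed between -0.56 and -0.04 in the group means, and the ratio of Itga4 to Itgb1 between -0.78 and -0.09. That of Itga6 to Itgb1 ran from -2.00 ± 0.40 (SD, n = 2) with ruxolitinib vehicle on day 7 to -0.70 ± 0.80 (SD, n = 3) with venetoclax on day 1. Such a ratio depends on both probes, and only its differences between groups are read here. Group means of Itgb2 ran from 239 ± 10.0 (SD, n = 2) with venetoclax vehicle on day 1 to 425 ± 18 (SD, n = 3) with ruxolitinib on day 7, and those of Itgal from 62.3 ± 18.1 (SD, n = 3) with venetoclax on day 1 to 201 ± 29.8 (SD, n = 2) with venetoclax vehicle on day 7. With the 13 groups in order of their means, 11 of 12 neighbours for Itgal and 10 of 12 for Itgb2 differed by no more than the larger SD, as did all 12 for Itgam, Itga4, Itga5, Itga6 and Itgb1, and 11 for Itgax.

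The genes whose pattern was most like that of each subunit were taken from the genes above background in all lanes, 209 or 210 for each. Itgal was most like Clec5a at 0.96, a myeloid receptor, Lcp1 at 0.95, an actin-bundling protein of leukocytes, and Lcn2 at 0.94, a protein of neutrophil granules, where the median over all genes compared was 0.40. Within groups these were 0.89, 0.91 and 0.89. With the 11 neutrophil genes summed, a list that holds Lcn2, the r of Itgal was -0.58, and -0.90 with total count scaling. With the sums of other lists it was 0.85 for stem and progenitor genes, 0.79 for mast cell and basophil genes and 0.68 for monocyte genes. It was 0.34 for NK cell and 0.16 for T cell genes, and from -0.11 to 0.56 for the remaining lists. Itgb2 was most like Camp at 0.87, another granule protein, Il16 at 0.81 and Cxcr4 at 0.79, the receptor that keeps cells in the marrow. Camp is in the neutrophil list too, and with the sum of that list the r of Itgb2 was -0.28, and -0.80 with total count scaling. Itgam was most like Pik3cg at 0.81, Lyz2 at 0.77, the lysozyme of macrophages and granulocytes, and Lgals3 at 0.77. Among the genes most like Itga4 were Hmgb1 at 0.87 and Ctss at 0.83. Itgb1 was most like Runx1 at 0.82, Tgfb1 at 0.82 and Thbs1 at 0.81. Within groups these were 0.80, 0.82 and 0.71, and within the day 7 run 0.55, 0.29 and 0.59. Itga6 was most like Map3k1 at 0.55, Itgb3 at 0.55, the platelet β3 chain, and Ppbp at 0.48, a platelet chemokine, and its r with 3 platelet genes summed was 0.63. Itga5 was most like Irf2 at 0.62, Ifnar1 at 0.59 and Cd97 at 0.54. Itgax was most like Cxcl12 at 0.46, Ppbp at 0.42 and Mapk3 at 0.41, and its counts were too low for such values to say much. Over all genes compared the medians were 0.28 for Itgam, 0.36 for Itga4, 0.36 for Itgb1 and 0.33 for Itgb2. For Itgax, Itga5 and Itga6 they were 0.06, -0.08 and -0.03.

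The other adhesion genes on the panel gave few calls with the drugs. Of 45 such genes tested (6 further integrin chains, 10 ligands, 14 genes of integrin activation and signalling, and 15 selectin ligands and other adhesion molecules), 15 had a fold change above 0 and 30 below 0 with venetoclax on day 1, with a median of -0.16 (all genes -0.02), and 36 above and 9 below with ruxolitinib, with a median of 0.24 (all genes 0.13). Of these 0 were called, and 5 with venetoclax (10.4% of all genes) and 3 with ruxolitinib (13.6% of all genes) had an unadjusted p under 0.05. The 2 ligands with the lowest p with venetoclax on day 1 were Icam4, a ligand of the β2 integrins on red cells, at -1.13 (adjusted p 0.0830), with 1 of its 3 venetoclax lanes not above background, and Thbs1, thrombospondin, at -1.28 (adjusted p 0.0891). Icam4 was lower with ruxolitinib on day 1 too, at 25.1, 19.2 and 20.8 against 38.5 and 34.2. Its log2 fold change there was -0.73, with an edgeR adjusted p of 0.187. For Thbs1 the responses to the 2 drugs differed by -1.95 ± 0.51 (SE), with an edgeR adjusted p of 0.0385. Thbs1 was at 49.9, 30.5 and 17 with venetoclax against 64.7 and 77.3, and at 70.9, 117 and 93.0 with ruxolitinib against 62.3 and 56.5. Over the mean of the 3 days Zap70, a kinase of T cell receptor signalling, was called lower with venetoclax at -0.97 ± 0.24 (SE, adjusted p 0.0162), the only call of the list in that comparison, where 2.9% of all genes were called. On day 1 it was at 16.6, 10.6 and 4.24 against 15.1 and 17.5 with vehicle, with overlap. The 16.6, from 3 raw counts, was not above background. On day 3 Zap70 was at 14.8, 10.3 and 9.36 against 23.1 and 17.2. On day 7 it was at 1.74, 4.74 and 5.62 against 10.9 and 19.7, and the first 2 of these, from 1 and 2 raw counts, were not above background. In the T cell list 9 of 10 genes had a fold change below 0 over the same days, with a median of -0.52 and 2 called, and their part in the Zap70 value was not tested.

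Between the day 7 and day 1 runs 16 of the 45 were called higher and 7 lower. Of 10 ligands 5 were called higher and 1 lower. Those called higher were Thbs1 at 0.56 ± 0.18, Vcam1, the ligand of VLA-4, at 0.89 ± 0.16 (adjusted p 2.71e-05), Fn1, fibronectin, at 0.95 ± 0.20 (adjusted p 0.000193), Thy1 at 1.15 ± 0.17 and Spp1, osteopontin, at 1.96 ± 0.29, which was above background in 5 of 10 lanes of the day 1 run. The ligand called lower was Icam4 at -0.48. Of the 6 other integrin chains 2 were called, both lower, Itgb3 at -0.98 ± 0.15 (adjusted p 3.51e-06) and Itgae. Itgae was above background in 6 of 10 drug and vehicle lanes of the day 1 run and 1 of 10 of the day 7 run, so that the size of its change is not measured. In the signalling list Cd9, a tetraspanin that binds integrins, was higher by 2.25 ± 0.25 (adjusted p 6.51e-08), Cd47 by 0.85 ± 0.12, Lcp1 by 1.01 ± 0.17, Syk by 0.60 ± 0.13 and Cd63 by 0.40 ± 0.13. In the same list Plaur, the urokinase receptor, was called lower at -0.54 ± 0.12, as were Zap70 at -0.71 ± 0.21 and Lyn at -0.25 ± 0.10. Selplg, the ligand of P-selectin, was higher by 1.27 ± 0.20, Cd34 by 1.3 ± 0.17, Cd164 by 1.08 ± 0.14, Alcam by 1.07 ± 0.19 and Spn by 0.43 ± 0.11, and Cd99 was called lower at -1.13 ± 0.17. These shares stand beside the 46.0% of all genes that were called.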

How the data were processed

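RNA of bone marrow was measured by NanoString nCounter, in which barcoded probes that bind their target RNA are counted without amplification. The deposited values are raw counts per probe, 1 lane per mouse, which the authors exported with the control probes and without normalisation; the methods name nCounter Advanced Analysis for their own normalisation, which is not in these counts. Groups were taken from the deposited labels. Lanes were divided by a scale, the geometric mean of those housekeeping probes (11 of 20) that were above background in all lanes, where background is 2 SD over the mean of the 8 negative probes. Genes above background in at least 2 lanes, 655 of 750, were tested with edgeR 4.0.16 (quasi-likelihood test) under R 4.3.3, as 1 model with a mean for each of 13 groups, with Benjamini-Hochberg adjustment over the 655 and a threshold of 0.05. Levels are normalised counts, and log2 levels add a pseudocount of 1. Counting error is large at low counts, and lanes differ in depth, so a shallow lane is less certain. Correlations, sums and ratios were made in Python 3.11.15 (pandas 2.3.3, scipy 1.17.1, numpy 2.4.6). The alternatives were TMM, total count and all 20 housekeeping probes for scaling, limma 3.58.1, DESeq2 1.42.0, other filters, the groups compared alone, a replicate block, pooled vehicles, untreated mice as control, each mouse left out, and the 2 shallow lanes left out. The comparisons between runs were added after the values were seen, and so were their alternatives. Fold changes are given singly for subunits with an unadjusted p under 0.05, and levels for all 8. For each subunit the 3 genes most alike were named. From the adhesion lists, genes called were named, and with them at most 3 per comparison with the lowest p. Of the genes that these rules name, 2 are not reported here. The 8 genes, the adhesion and marker lists and the tests were chosen with earlier results of these data known, and the motifs likewise. No 2 lanes of a group were identical, and no sample was left out of the reported results.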

Additional observations from a re-analysis of the deposited data

Results flagged for a closer look

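Itgal stood on opposite sides of vehicle with the 2 drugs on day 1, below both vehicle mice in all 3 venetoclax mice and above both in all 3 ruxolitinib mice. The 2 vehicles differed too, at 96 and 78.9 for venetoclax and 73.3 and 66.8 for ruxolitinib, and against the other drug's vehicle the mice of each drug overlapped. The difference between the responses was -0.88 on the log2 scale, with an edgeR adjusted p of 0.466. Itgal also stood on opposite sides of vehicle with venetoclax on day 1 and on day 3, below it on day 1 and above it on day 3, where the log2 fold change was 0.79. This difference between the days was not tested, and the days were read in different runs.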

How the results depend on the processing

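The count of subunits called was 0 for each of the 14 comparisons of drugs and controls under each alternative and with each mouse left out (lowest 0, highest 0), except that pooling the vehicles of both drugs called 1 subunit, Itgax, for ruxolitinib on day 1. For the day 7 run against the day 1 run the count was 5, and it was 3 under TMM scaling, all 20 housekeeping probes, limma and DESeq2, of which Itgal and Itgb2 were called under all 4, Itga6 as lower under TMM, all 20 probes and DESeq2, and Itgb1 under limma. The cause was not tested. With each mouse left out that count ran from 4 to 6, and for the day 3 run it was 0 throughout. Of the 13 subunit fold changes that were recomputed, 0 changed sign, and the difference between drug responses for Itgal on day 1 was not among them. The replicate numbers do not pair the mice, since the same numbers deviated together with r between -0.30 and 0.39. With the replicate number as a block, 0 subunits were called for the drugs and 5 between the day 7 and day 1 runs, and the fold changes for Itga4 with venetoclax on day 1 and Itgax with ruxolitinib on day 1 were -0.92 and 1.2. The number of all genes called also moved by over 1.5 times, without adding a subunit unless named above. For ruxolitinib on day 1 it was 18, and it was 77 with the groups compared alone, 30 with pooled vehicles, 12 with total count scaling and 5 with limma. For venetoclax on day 1 it was 1 and ran from 0 to 25, for the mean of the days 19 (10 to 26) with venetoclax and 8 (0 to 20) with ruxolitinib, and for venetoclax against ruxolitinib responses 11 (1 to 61) on day 1, 2 (0 to 3) on day 7 and 4 (3 to 10) over the days. Vehicle against untreated mice gave 0 (0 to 5). On day 7 it was 1 for each drug, and with untreated mice as control, 2 of which were read in other runs, 66 for venetoclax and 87 for ruxolitinib. On day 3 it was 0 (0 to 2) for venetoclax and 1 (0 to 10) for ruxolitinib. Low counts limit Itgax and Itga5 most, and 2 or 3 mice per group limit all comparisons on a single day.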
